A study of Mus musculus with 6 samples.

Results

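BC44 and C57MG, a pair of established mouse mammary cell lines, were compared gene by gene. The comparison covered the 10521 genes with at least 1 RPKM in 2 or more of the 4 BC44 and C57MG libraries, out of 11417 genes in the deposited table. RPKM counts reads per kilobase of a gene's length, scaled to the reads of the library. The series holds 6 libraries of poly(A) RNA, 2 each from BC44, C57MG and HC11, another mouse mammary line, and by its title the study asked how GRHL factors and the progesterone receptor control Wnt4. All lines were untreated, were grown on plastic and carry the cell type label mammary epithelial. BC44, a gift to the submitters, was kept in RPMI1640 holding insulin at 5 µg/ml, C57MG in DMEM GlutaMAX holding it at 10 µg/ml, both with 10% serum. Harvest came 2 days after plating, and no genotype, clone or passage is given for either line. Line and medium therefore cannot be told apart. Nothing in the labels says that replicates came from separate cultures, so p-values measure only the spread between these libraries, which may be technical. In bulk RNA, fewer cells expressing a gene and less RNA of it per cell cannot be told apart.

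The mammary duct is built of an inner luminal and an outer basal layer. Basal cells carry the basal keratin pair Krt5 and Krt14, the transcription factor Trp63, and hemidesmosomes that bind laminin, and in the gland they contract through smooth-muscle actin. Epithelial cells hold together through E-cadherin, tight junctions and desmosomes, whereas mesenchymal cells rely on vimentin filaments, fibrillar collagens and matrix-binding integrins. The Snail, Twist and Zeb factors repress epithelial genes, and the Grainyhead-like, Ovol and Esrp factors maintain them.

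Replicates correlated at Pearson r = 0.994 (BC44) and 0.995 (C57MG) across genes, and libraries of different lines at 0.680 to 0.721. Genes are not independent replicates, so these are descriptions. Depth, estimated from the steps between low values, was 14400000 to 17850000 reads, and a floor of 3 reads was worth 0.084 to 0.104 RPKM for a gene of 2 kb. Between 113 and 622 genes were listed at 0 in a library, with the highest number in C57MG replicate 2.

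A low level of the other line's genes was present in 3 of the 4 libraries, to unequal degrees. It was measured on genes of at least 20 RPKM in the line where they are high that stayed at or under 2% of that level in the other replicate of the low line and in both HC11 libraries. In BC44 replicate 2 the median such gene stood at 1.92% of its C57MG mean (63 genes), against 0.594% in BC44 replicate 1 (34 genes). In C57MG replicate 1 the median was 0.692% of the BC44 mean (8 genes), and in C57MG replicate 2 it was 0, with 6 of 8 genes listed at 0. Arginase 1 (Arg1), for example, stood at 75.4 and 66.7 RPKM in BC44 and at 0.412 and 0 in C57MG. Selecting genes by a ceiling in one replicate and reading the other is a description, and the source of this signal was not tested. For some genes below, a low-line level near these shares is therefore given as lying at the share, and one well above as the line's own. Other low-line values are printed without this reading and may also lie at the share. In BC44, Pdgfrb, Bmp4, Wnt5a, Acta2, Ccl2, Ccl7 and Csf1 are among these. Of genes called higher in C57MG (at least 20 RPKM there), 77 of 643 (12%) lay within 2 times the share in both BC44 libraries. Among those called higher in BC44, 124 of 647 (19.2%) lay within 2 times the share in C57MG replicate 1, with replicate 2 not checked. Genes that set the shares were not left out of these counts, and they tend to lie within the bound by construction. The rules differ, so these percentages are not to be compared. Both readings were chosen after the values were seen.

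**Figure D1:**
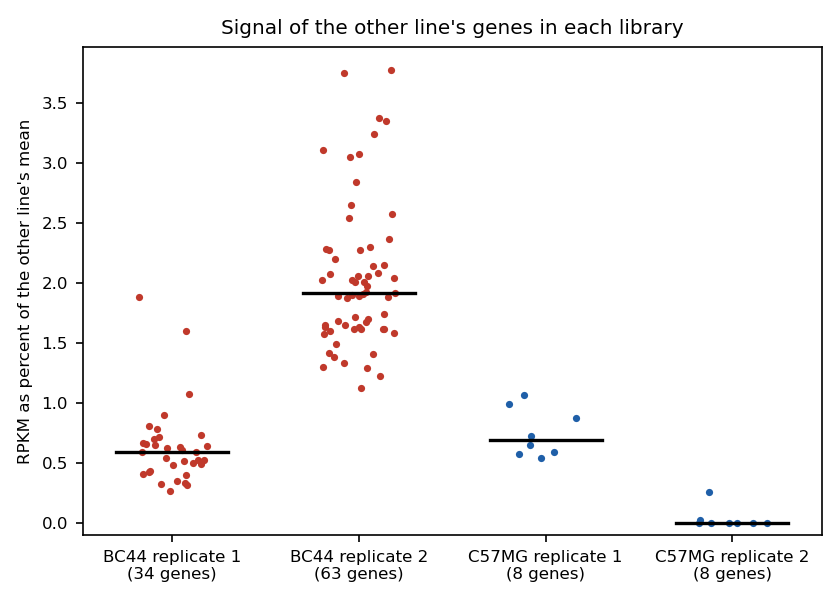
RPKM of genes of the other line in each of the 4 libraries, as a percent of the mean in the line where the gene is high. Each point is a gene and each bar a median: 0.594% and 1.92% in BC44 replicates 1 and 2, 0.692% and 0 in C57MG replicates 1 and 2.

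The transcriptomes of the lines differed widely. In a limma fit on log2(RPKM + 1), 7666 of the 10521 genes (72.9%) passed an adjusted p of 0.05, 3992 of them higher in BC44 and 3674 higher in C57MG. A gene is named called where it also differed by at least 1 on that scale, which is 2-fold after adding 1 RPKM and understates low genes. By that rule 1572 genes (14.9%) were called higher in BC44 and 1616 (15.4%) higher in C57MG. Genes that met the 1 RPKM rule through a single line were selected toward a difference, although not all of them were called. Among the 8819 genes of at least 1 RPKM in all 4 libraries, 826 (9.37%) were called higher in BC44 and 943 (10.7%) higher in C57MG. Differences are always BC44 minus C57MG of mean log2(RPKM + 1), and their median was 0.036 over all genes tested. BC44 replicate 1 and C57MG replicate 2 carried less cross-line signal than the other library of their line. Between these libraries alone, 1519 of the 1572 and 1540 of the 1616 lay past 2-fold in the same direction. Both libraries also entered the means behind the calls, so this is no independent check. With 2 libraries in each line the smallest exact permutation p is 0.33, so no such test is given.

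**Figure D2:**
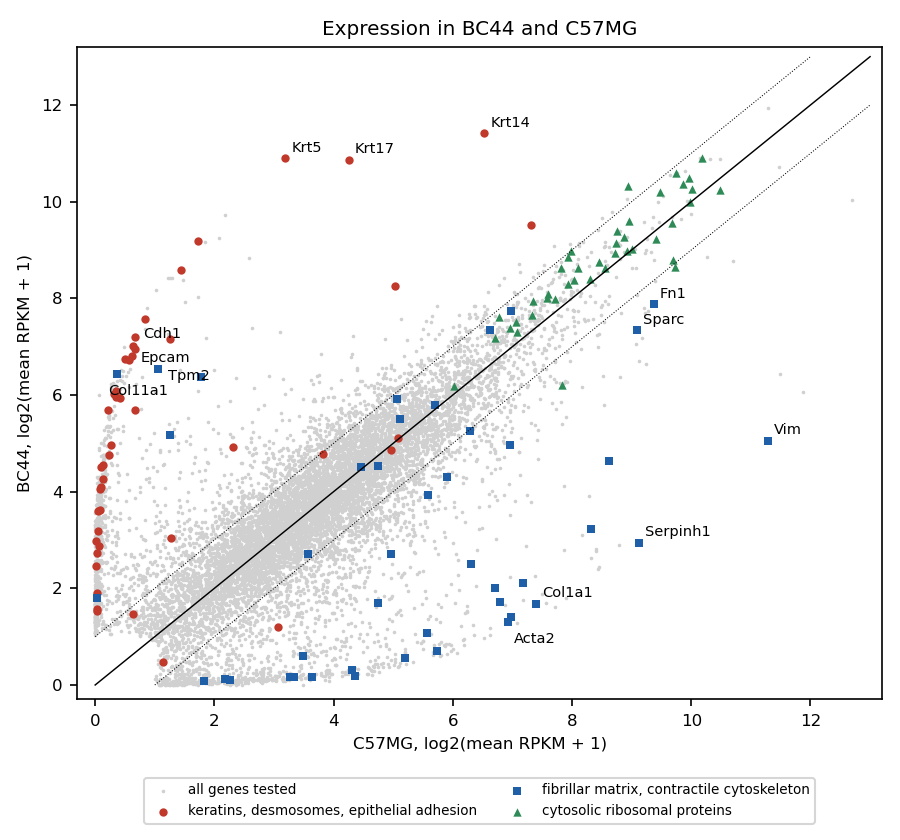
Mean expression of each tested gene in C57MG (x axis) and BC44 (y axis), as log2(RPKM + 1), with the line of equality and dotted lines at a difference of 1. Junction and keratin genes lie above the line with few exceptions, matrix and contractile genes mostly below it, and ribosomal protein genes along it.

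The labelled cell type was checked on marker lists. BC44 expressed the basal keratins and Trp63, with a basal list of 9 tested genes holding 2.09% and 1.98% of summed RPKM in its libraries, against 0.126% and 0.104% in C57MG. Of these 9 genes, 6 were higher in BC44, and the contractile Acta2 and Mylk and the integrin Itga6 were higher in C57MG. The luminal list had 7 of its 17 genes in the table and 2 tested, Gata3 and Areg, both called higher in C57MG. Its summed RPKM was 1.44 and 2.78 in BC44 against 48.1 and 37.3 for C57MG, with HC11 at 347 and 438. Too low to be tested, the luminal keratin Krt8 stood at 0.038 and 0.064 RPKM in BC44 and at 0.307 and 0.503 in C57MG, and its partner Krt18 was at 0 in both BC44 libraries and at 0 and 0.046 in C57MG. HC11, by contrast, held 144 and 148 RPKM of Krt8. In C57MG the epithelial genes Cdh1 and Epcam were at 0 in replicate 2 and at 1.09 and 0.949 RPKM in replicate 1, at the cross-line share. By Cdh1 and Epcam the data go against the epithelial label for C57MG, although Gata3, Areg, Krt14 and Trp63 were present there. Krt8 and Krt18 were near 0 in both lines and do not set C57MG apart from BC44. The line is called by its name here. Stromal markers held 2.08% and 2.01% of summed RPKM in C57MG against 0.0442% and 0.0688% in BC44. In C57MG this sum was mostly S100a4 and Vim. Of 8 tested stromal markers, 7 were called higher in C57MG, and Postn, a matrix gene described below, was called higher in BC44. Dcn, which encodes the fibroblast proteoglycan decorin, was at 0 in all 4 libraries. Summed RPKM of the immune list was 3.39 and 3.63 in BC44 and 32.1 and 31.1 in C57MG, mostly Lyz2 (18.6 and 17.2 RPKM in C57MG), and its part in the results was not tested. The endothelial list had no tested member, with Pecam1 at 1.35 and 0.939 RPKM in BC44. The adipocyte list had 2 tested members, of which Pparg was called higher in C57MG at 2.34 and 1.64 RPKM. The pericyte list had 2, of which Mcam, an adhesion molecule, was called higher in BC44 at 45.2 and 26.3 RPKM against 4.11 and 3.47.

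Proximal promoters of 4 genes that mark the contrast are shown because the Snail and Zeb factors bind the E-box letters CACCTG. They come from RefSeq on GRCm38.p6, from 250 bases before to 50 after the gene start, 5′ to 3′ on the gene's strand, with CACCTG on either strand in capitals. The submitters' notes name mm9, so the coordinates belong to RefSeq and not to the deposited table.
Epcam, chr17:87635729-87636028, + strand: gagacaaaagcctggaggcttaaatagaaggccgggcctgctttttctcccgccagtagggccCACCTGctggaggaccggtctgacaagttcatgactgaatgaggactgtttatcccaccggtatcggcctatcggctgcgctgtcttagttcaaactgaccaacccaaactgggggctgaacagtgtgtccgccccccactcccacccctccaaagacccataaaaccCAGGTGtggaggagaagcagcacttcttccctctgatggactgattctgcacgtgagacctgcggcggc
Krt5, chr15:101712856-101713155, - strand: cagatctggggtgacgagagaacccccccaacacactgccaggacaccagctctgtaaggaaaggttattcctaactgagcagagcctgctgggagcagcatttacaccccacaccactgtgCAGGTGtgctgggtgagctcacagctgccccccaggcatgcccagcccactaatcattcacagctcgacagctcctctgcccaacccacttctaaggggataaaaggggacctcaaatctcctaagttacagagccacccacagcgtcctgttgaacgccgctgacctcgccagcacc
Vim, chr2:13574061-13574360, + strand: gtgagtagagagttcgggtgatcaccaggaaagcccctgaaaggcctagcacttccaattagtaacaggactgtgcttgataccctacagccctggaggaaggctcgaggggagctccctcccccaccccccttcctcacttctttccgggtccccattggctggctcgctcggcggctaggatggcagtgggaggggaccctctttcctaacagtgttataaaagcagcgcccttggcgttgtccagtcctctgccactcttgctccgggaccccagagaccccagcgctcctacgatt
Acta2, chr19:34255324-34255623, - strand: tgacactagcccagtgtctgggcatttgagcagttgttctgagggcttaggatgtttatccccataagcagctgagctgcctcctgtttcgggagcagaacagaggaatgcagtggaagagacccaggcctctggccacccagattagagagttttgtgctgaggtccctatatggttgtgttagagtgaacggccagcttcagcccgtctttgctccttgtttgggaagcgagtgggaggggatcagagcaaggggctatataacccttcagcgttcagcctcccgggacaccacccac
The E-box letters occurred 2 times in the Epcam window and 1 time in that of Krt5, and not in those of Vim and Acta2. None of the 4 windows held AACNNGTT, the letters of a Grainyhead-like site, or TGANTCA, those of an AP-1 site. A RefSeq promoter was matched for 8391 of the 10521 tested genes, 1187 of those called higher in BC44 and 1234 of those called higher in C57MG. CACCTG was present in 16.8% of the promoters of tested genes, in 24.1% of those of genes called higher in BC44, and in 16.3% of those called higher in C57MG. AACNNGTT was present in 3.3%, 3.5% and 4.0% of the same sets, and TGANTCA in 5.2%, 7.1% and 8.3%. Over all promoters of the same length in the table, the shares were 20.2% for CACCTG, 4.2% for AACNNGTT and 7.8% for TGANTCA. These matches are a description, with no test.

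Adhesion and polarity genes were higher in BC44 almost throughout. Of 23 tested members (33 listed, 26 in the table), 22 were called higher in BC44 and none in C57MG, with a median difference of 4.41. Only 3 members reached 1 RPKM in all 4 libraries, of which 2 were called, and the rest met the rule mostly through BC44 alone. For the lists that follow, these counts stand in parentheses, higher in BC44 first. Of all tested genes, 14.9% were called higher in BC44 and 15.4% in C57MG. Of all genes above 1 RPKM in all 4 libraries, 9.37% and 10.7% were. A list count near these shares is no trait of its list. E-cadherin (Cdh1), the adherens junction cadherin of epithelia, stood at 137 and 119.5 RPKM in BC44 and at 1.09 and 0 in C57MG. Its difference was 6.48 ± 0.29 (SE; limma adjusted p = 5.44e-07). P-cadherin (Cdh3), the basal-layer cadherin, was at 114 and 108 RPKM against 0.975 and 0.082, a difference of 6.26. The protease inhibitor Spint2 was at 116 and 96.2 RPKM against 0.796 and 0.044. In each of these 3 genes the lines did not overlap, as in 88.3% of all tested genes, and C57MG replicate 2 lay below replicate 1. Tjp1 (ZO-1), a scaffold found in many cell types and chosen here after its values were seen, was the member not called, at 25.9 and 30.6 RPKM in BC44 and 28.8 and 31.5 in C57MG. 

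Desmosomes, the junctions that anchor keratin filaments, followed the same direction. Of 13 tested members, 11 were called higher in BC44 and 1 in C57MG, with a median of 4.14 (1 and 1 of the 3 above 1 RPKM in all 4 libraries). Plakoglobin (Jup) was at 193 and 185 RPKM in BC44 against 1.54 and 0.02, and desmoplakin (Dsp), which links the plaque to keratin, at 144 and 146 against 1.17 and 0.013. The desmosomal cadherin Dsg3 was at 123 and 124 RPKM against 1.19 and 0, and plakophilin 1 (Pkp1) at 144 and 141 against 2.1 and 0.684. The exception was plakophilin 2 (Pkp2), at 1.31 and 1.29 RPKM in BC44 and 7.15 and 7.54 in C57MG, a difference of -1.86 ± 0.11 (SE; limma adjusted p = 2.42e-06). Perp, a membrane protein of desmosomes, was abundant in both lines and still differed, at 792 and 680.1 RPKM in BC44 and 167 and 149.9 in C57MG.

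Keratins were mostly higher in BC44. Keratin genes held 2.25% and 2.16% of summed RPKM in BC44 and 0.0685% and 0.0351% in C57MG. Of 10 tested, 7 were called higher in BC44 and none in C57MG, and among the 4 above 1 RPKM in all 4 libraries 3 were. Krt5 had the largest difference of any tested gene, with 2012 and 1828 RPKM in BC44 and 16 and 0.148 in C57MG, a difference of 8.76 ± 1.03 (SE; limma adjusted p = 1.23e-04). C57MG replicate 1 was at 0.836% of the BC44 mean for Krt5, the cross-line share, and replicate 2 near 0. Its usual partner Krt14 was different. Krt14 stood at 2716 and 2736 RPKM in BC44 and still at 118 and 64.8 in C57MG, where replicate 2 held 2.38% of the BC44 mean although other BC44 genes were at 0 there. Krt17, a keratin of basal and stressed epithelia, was at 1923 and 1820.2 against 24.7 and 11.4 RPKM. Krt16, chosen after its values were seen, was at 288 and 322 against 42.3 and 21.4 RPKM, so C57MG held Krt14, Krt16 and Krt17 with almost no Krt5. Krt6a was at 372 and 399 against 3.43 and 0 RPKM. Krt6a and Krt6b, and Krt14, Krt16 and Krt17, are close in sequence, and reads could be split between them in ways the deposit does not state.

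Hemidesmosome and basement membrane genes were called in both directions. The list of 19 tested genes had 8 called higher in BC44 and 7 in C57MG, with a median of -0.17 (3 and 7 of the 14 above 1 RPKM in all 4 libraries). On the BC44 side were the hemidesmosome collagen Col17a1, at 330.1 and 334 RPKM against 3.19 and 0.394, and integrin beta 4 (Itgb4), at 71.4 and 77 against 0.931 and 0.296. The integrin activator Fermt1 was at 17.9 and 20.3 against 0.184 and 0 RPKM. On the C57MG side were the collagen IV chains Col4a1, at 88.3 and 83.6 RPKM in C57MG against 7.92 and 8.74 in BC44, and Col4a2, at 70.8 and 71.3 against 16.4 and 17.9. Laminin beta 2 (Lamb2) was at 49.4 and 51.6 RPKM in C57MG against 7.69 and 6.17. Integrin alpha 6 (Itga6), which pairs with beta 4 in hemidesmosomes and with beta 1 elsewhere, was at 13.8 and 16.5 RPKM in BC44 and 113 and 86.8 in C57MG, a difference of -2.63 ± 0.14 (SE; limma adjusted p = 1.37e-06). The alpha 6 and beta 4 subunits thus differed in opposite directions. Integrin alpha 3 (Itga3) was abundant in both lines and not called, at 100.4 and 102 RPKM in BC44 against 108 and 119.9 in C57MG. The tetraspanin Cd151, which binds laminin-receptor integrins, passed the adjusted p without reaching 2-fold, at 95.9 and 88.1 RPKM against 167 and 163.

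**Figure D3:**
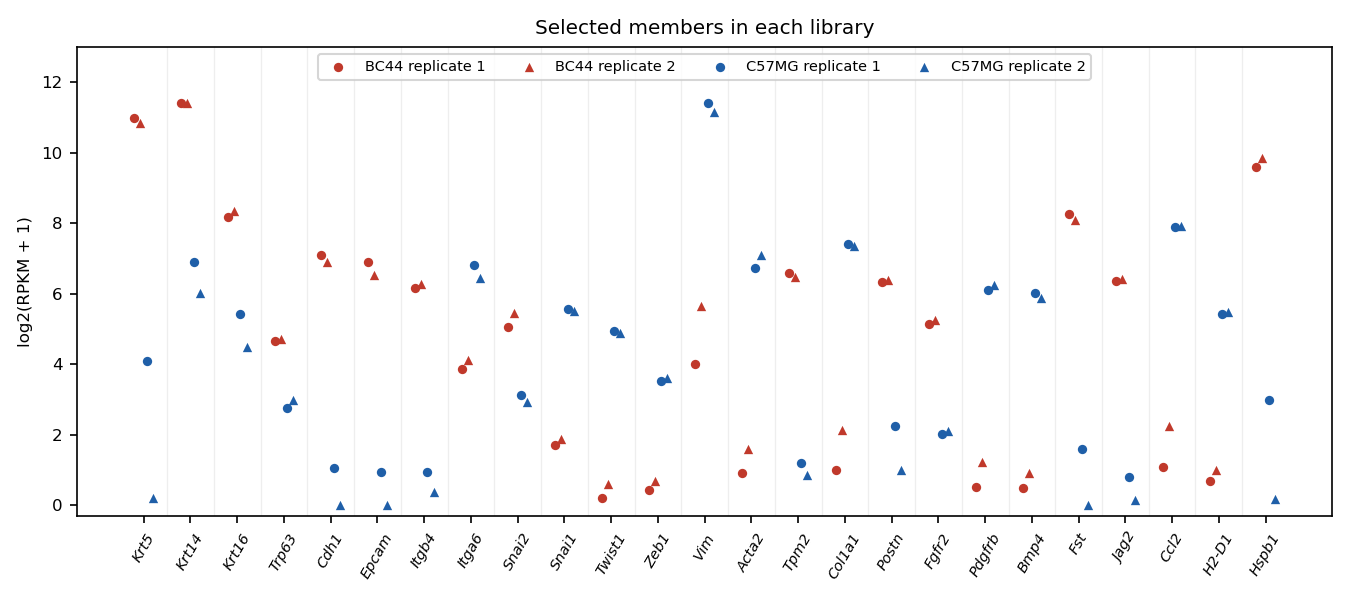
Level of 25 members in each of the 4 libraries, as log2(RPKM + 1), with circles for replicate 1 and triangles for replicate 2. Krt14, Krt16 and Trp63 stay well above 0 in C57MG (blue), and Itga6 and Snai1 lie higher in C57MG than in BC44 (red) while Itgb4 and Snai2 lie lower.

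Epithelial transcription and splicing factors were mostly higher in BC44. Of 17 tested, 13 were called higher in BC44 and 2 in C57MG, with a median of 2.56 (2 and 1 of the 5 above 1 RPKM in all 4 libraries). Grhl2 was at 23.4 and 23.3 RPKM in BC44 and 0.191 and 0.035 in C57MG, a difference of 4.46 ± 0.13 (SE; limma adjusted p = 1.45e-07). Grhl1 had a lower level, at 6.96 and 5.83 RPKM in BC44 against 0.19 and 0.037 in C57MG, and Grhl3 was at 2.16 and 2.32 against 0.02 and 0. The epithelial splicing regulator Esrp1 was at 52.4 and 47.8 RPKM in BC44 against 0.439 and 0, and its paralog Esrp2 at 35.1 and 31.6 against 0.255 and 0. Klf5, a Krüppel-like factor, was at 26.3 and 31.8 RPKM against 0.096 and 0. In C57MG these 3 genes were at 0 or near the cross-line share. Trp63, a defining factor of basal epithelia, chosen after its values were seen, was lower but present in C57MG, at 24.4 and 25.6 RPKM in BC44 and 5.86 and 6.98 in C57MG, a difference of 1.81 ± 0.11 (SE; limma adjusted p = 3.44e-06). Sox9 was likewise present in both, at 47.1 and 40.7 RPKM in BC44 against 12.6 and 15.4. Gata3, a luminal factor, was called higher in C57MG at 7.32 and 8.43 RPKM against 0.034 and 0.086 in BC44, as was the forkhead factor Foxq1 at 21 and 18.8 against 6.2 and 8.76. Klf4 was not called, at 46.7 and 48.5 RPKM in BC44 and 53.6 and 46 in C57MG.

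Mesenchymal factors went the other way, with exceptions. Of 17 tested, 10 were called higher in C57MG and 2 in BC44, with a median of -1.51 (1 and 3 of the 8 above 1 RPKM in all 4 libraries). Twist1 stood at 29.7 and 28.7 RPKM in C57MG against 0.169 and 0.532 in BC44, and Twist2 at 22.7 and 25 against 0.103 and 0.216. The homeobox factor Prrx2 was at 24.3 and 28 RPKM against 0.07 and 0.35. Zeb1, chosen after its values were seen, was at 10.6 and 11.3 RPKM in C57MG and 0.352 and 0.623 in BC44. The Snail genes were split between the lines. Snai1 was at 46.6 and 44.8 RPKM in C57MG and 2.28 and 2.72 in BC44, a difference of -3.74 ± 0.11 (SE; limma adjusted p = 1.45e-07). Snai2 (Slug), which is also known in basal mammary cells, was at 7.85 and 6.58 RPKM in C57MG and 32.1 and 42.9 in BC44, a difference of 2.22 ± 0.15 (SE; limma adjusted p = 4.75e-06). Osr1 was the other member higher in BC44, at 19.1 and 10.8 RPKM against 0.193 and 0. Scx, a tendon factor, was at 97.9 and 109 RPKM in C57MG against 20.9 and 21.2 in BC44. The forkhead factor Foxc1 was not called, at 21.1 and 27.8 RPKM in C57MG against 48.6 and 41.5 in BC44, a difference of 0.86 that was 1.06 without C57MG replicate 2.

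The cytoskeleton of C57MG carried vimentin and smooth-muscle genes. Vim, the mesenchymal intermediate filament, stood at 2708 and 2282 RPKM in C57MG and 15.2 and 49.4 in BC44, a difference of -6.44 ± 0.43 (SE; limma adjusted p = 5.15e-06). In BC44 that is 0.609% and 1.98% of the C57MG mean, near the cross-line shares of those libraries. Vim is among the genes that set these shares, so it lies near them partly by construction. Smooth-muscle actin (Acta2) was at 105 and 136 RPKM in C57MG and 0.883 and 2.03 in BC44, and the myosin kinase Mylk at 19 and 18.4 against 0.108 and 0.384. The actin-binding caldesmon (Cald1) was at 122 and 125 RPKM against 29.8 and 30.8, a level of its own in BC44. In all, 6 of 10 tested members were called higher in C57MG and 1 in BC44, with a median of -1.40 (0 and 3 of the 6 above 1 RPKM in all 4 libraries). The exception was tropomyosin 2 (Tpm2), at 95.1 and 87.8 RPKM in BC44 and 1.31 and 0.825 in C57MG, a difference of 5.49 ± 0.13 (SE; limma adjusted p = 1.45e-07). Its paralog Tpm1 was not called, at 169 and 156 RPKM in BC44 against 83.3 and 113.

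Of the 26 lists, fibrillar matrix held the most genes called higher in C57MG. Of 34 tested, 25 were called higher in C57MG and 4 in BC44, with a median of -2.98. Among the 20 above 1 RPKM in all 4 libraries the counts were 14 and 1. The collagen chaperone Serpinh1 (HSP47) was at 568 and 542 RPKM in C57MG and 3.29 and 10.1 in BC44. Collagen I alpha 1 (Col1a1) was at 171 and 163 against 1.02 and 3.4. Both lay at the cross-line share in BC44, and Col1a1 is among the genes that set the share of BC44 replicate 2. Lysyl oxidase (Lox), the collagen crosslinker, was at 303 and 332 RPKM in C57MG against 5.9 and 10.7, and collagen VI alpha 3 (Col6a3) at 132 and 118 against 0.778 and 2.53. BC44 was not without matrix. Fibronectin (Fn1) was at 232 and 235 RPKM there against 614 and 704 in C57MG, and the collagen-binding Sparc at 180.5 and 143 against 559 and 526, both called higher in C57MG. Periostin (Postn), Col11a1, tenascin C (Tnc) and fibulin 5 (Fbln5) were called higher in BC44. Postn was at 79.6 and 83 RPKM in BC44 and 3.81 and 1.03 in C57MG, a difference of 4.72 ± 0.38 (SE; limma adjusted p = 1.28e-05). Col11a1, a fibrillar collagen chain, was at 102 and 68.1 against 0.556 and 0.02 RPKM, and Tnc at 34.8 and 35.7 against 1.88 and 0.893.

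Matrix receptors were higher in C57MG for 11 of 18 tested members and in BC44 for 1, Itgb8 (2.84 and 2.52 RPKM in BC44 and 0.365 and 0.498 in C57MG), with a median of -1.33 (0 and 5 of the 11 above 1 RPKM in all 4 libraries). The collagen-binding integrin Itga11 was at 61 and 52.6 RPKM in C57MG and 0.373 and 1.17 in BC44, and the collagen receptor kinase Ddr2 at 51.9 and 57.5 against 0.487 and 1.2. Mrc2, which takes up collagen fragments, was at 49 and 58 against 0.574 and 1.0 RPKM. Integrin beta 1 (Itgb1), the shared partner of many alpha chains, was not called, at 239.5 and 249 RPKM in BC44 against 227 and 231 in C57MG. The heparan sulfate proteoglycan syndecan 1 (Sdc1) was not called either, at 182 and 172 against 165 and 166 RPKM. The list of other cadherins and catenins had 4 called in each direction among 12, with a median of 0.30 (1 and 2 of the 7 above 1 RPKM in all 4 libraries). The giant cadherins Fat2 (14.6 and 12.8 against 0.118 and 0 RPKM) and Fat1 (41.5 and 37.7 against 10.6 and 12) were higher in BC44. N-cadherin (Cdh2) was higher in C57MG at 8.27 and 8.27 RPKM against 2.03 and 1.45, a lower level per length than that of E-cadherin in BC44. Beta-catenin (Ctnnb1) was not called, at 246 and 221 RPKM in BC44 against 182 and 187 in C57MG.

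**Figure D4:**
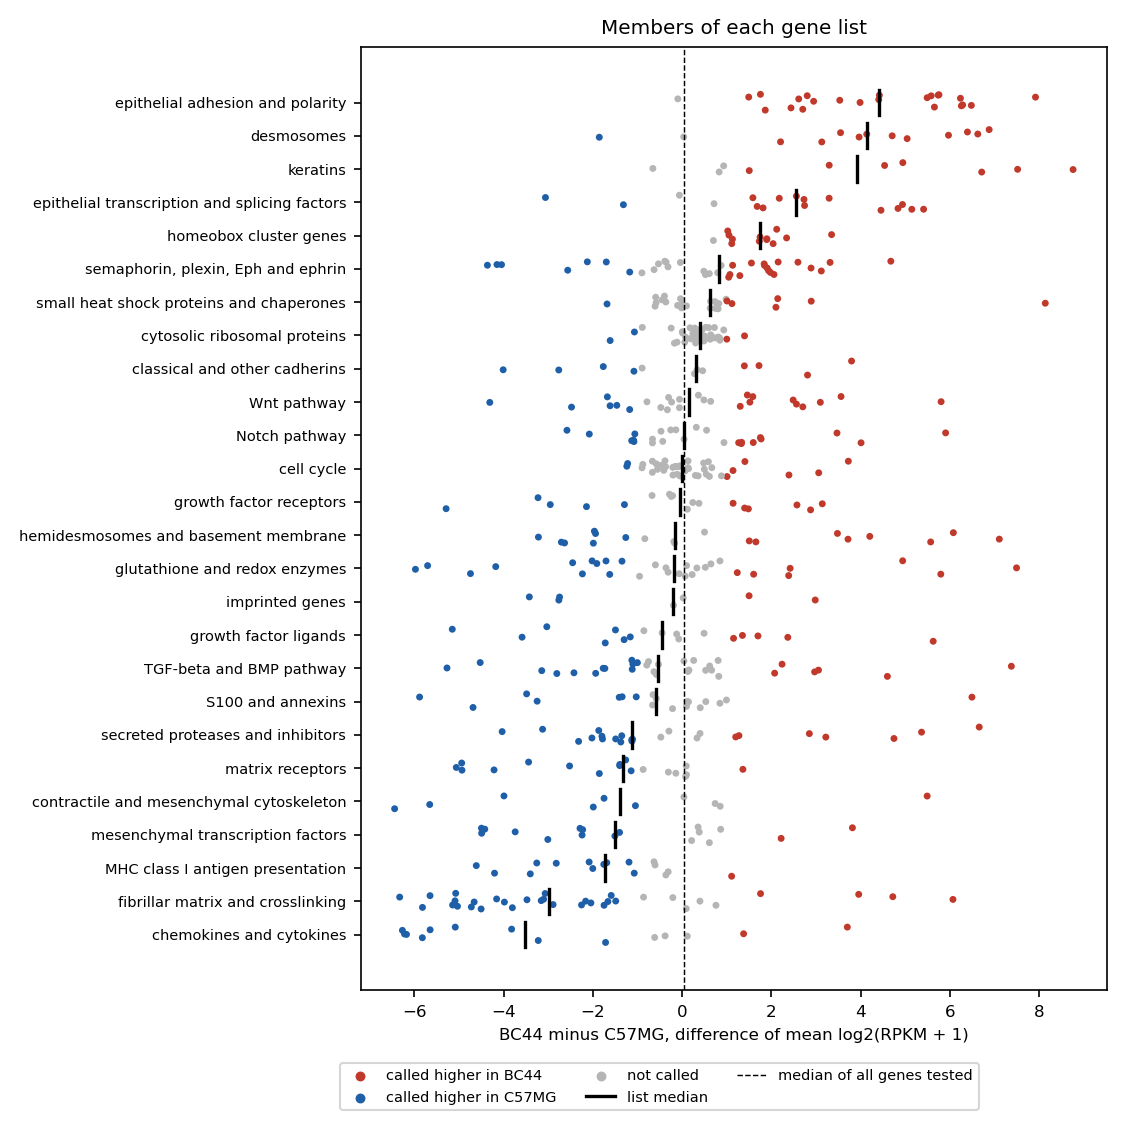
Difference of mean log2(RPKM + 1), BC44 minus C57MG, for every tested member of the 26 gene lists, ordered by list median (black bar), with the median of all tested genes dashed. Junction and keratin lists lie to the right, matrix and chemokine lists to the left, and ribosomal and cell cycle members cluster near the dashed line at 0.036.

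Growth factor receptors and ligands were called in both directions. Among 18 tested receptors 6 were called higher in BC44 and 5 in C57MG (4 and 2 of the 13 above 1 RPKM in all 4 libraries). The PDGF receptor Pdgfrb was at 67.5 and 75.3 RPKM in C57MG against 0.449 and 1.36 in BC44, and Pdgfra at 17 and 17.9 against 0.954 and 0.987. The VEGF receptor Flt1 was at 8.72 and 7.67 RPKM in C57MG against 0.124 and 0.247, and the receptor kinase Axl at 115 and 114 against 26.2 and 24.1. Fgfr2 was higher in BC44 at 34.6 and 37.2 RPKM against 3.06 and 3.3, a difference of 3.14 ± 0.13 (SE; limma adjusted p = 3.23e-07). Fgfr1, chosen after its values were seen, ran the other way, at 14.9 and 10.9 RPKM in BC44 and 33.9 and 31.6 in C57MG. The HGF receptor Met was at 32.5 and 40.4 against 5.92 and 4.65 RPKM, and Erbb3 at 8.13 and 6.73 against 0.166 and 0.119.

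Among 17 tested ligands 5 were called higher in BC44 and 7 in C57MG (3 and 5 of the 13 above 1 RPKM in all 4 libraries). The AXL-family ligand Gas6 was at 68.7 and 58.7 RPKM in BC44 and 0.662 and 0.025 in C57MG, so the ligand and its receptor Axl were higher in different lines. Pdgfa, likewise, was at 44.9 and 43 RPKM in BC44 and 8.37 and 7.09 in C57MG, while its receptor Pdgfra was higher in C57MG. Angiopoietin 1 (Angpt1) was the most abundant ligand, at 157 and 172 RPKM in C57MG and 2.81 and 4.69 in BC44. The KIT ligand Kitl was at 18.2 and 19.1 against 1.1 and 1.75 RPKM, and the EGF-receptor ligand amphiregulin (Areg) at 40.0 and 27.5 against 1.25 and 2.58.

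In the TGF-beta and BMP pathway 12 of 33 tested genes were called higher in C57MG and 6 in BC44, with a median of -0.53. Of the 25 above 1 RPKM in all 4 libraries, 2 were called higher in BC44 and 8 in C57MG. Over all tested genes, 15.4% were called higher in C57MG and 14.9% in BC44, so the BC44 count is near the general share. Follistatin (Fst), a secreted activin antagonist, was at 306 and 273 RPKM in BC44 and 2.04 and 0 in C57MG, a difference of 7.38 ± 0.46 (SE; limma adjusted p = 3.23e-06). The activin subunit Inhbb was at 28.7 and 23.4 against 0.195 and 0.03 RPKM, and the BMP ligand Bmp7 at 8.7 and 6.13 against 0 and 0. Bmp4 was on the C57MG side at 64.7 and 58.5 RPKM against 0.40 and 0.876 in BC44, a difference of -5.27 ± 0.15 (SE; limma adjusted p = 1.45e-07). Id3, a direct target of BMP signalling, was at 157 and 187 RPKM in C57MG and 17.6 and 31.5 in BC44, and Id1 at 128 and 128 against 47.9 and 70.7. Without BC44 replicate 1 the difference of Id1 was -0.84, under the 2-fold limit, against -1.12 with it. The latent TGF-beta binding proteins were split, with Ltbp2 at 46.1 and 36.4 RPKM in C57MG and 0.518 and 1.19 in BC44 and Ltbp4 at 1.73 and 1.62 against 23 and 17.2.

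Notch pathway genes showed 9 members called higher in BC44 and 6 in C57MG among 25 tested (7 and 4 of the 20 above 1 RPKM in all 4 libraries). The ligand Jag2 was at 81.9 and 83.9 RPKM in BC44 against 0.764 and 0.112 in C57MG. Dll1 was at 15.4 and 17.3 against 0.157 and 0 RPKM, and Jag1 at 25.4 and 30.4 against 1.8 and 1.41, so these 3 ligands were higher in BC44. The nuclear effector Rbpj was higher in C57MG, at 22.2 and 22 RPKM against 4.49 and 4.44. The sheddase Adam10 was at 69.5 and 67.6 RPKM in C57MG against 30.6 and 33.2 in BC44, and the glycosyltransferase Lfng, which modifies Notch, at 69.4 and 71.9 RPKM in BC44 against 22.4 and 23.1. Wnt pathway genes had 10 called higher in BC44 and 6 in C57MG among 26 (5 and 3 of the 18 above 1 RPKM in all 4 libraries). Wnt4 stood at 69.2 and 77.6 RPKM in BC44 and 11 and 12.2 in C57MG, a difference of 2.56 ± 0.10 (SE; limma adjusted p = 3.56e-07). Wnt5a was on the C57MG side at 22.4 and 24.9 RPKM against 0.122 and 0.374. The receptor Fzd1 was higher in BC44, at 35 and 33.8 against 2.23 and 1.79 RPKM in C57MG, as was the dishevelled inhibitor Nkd2, at 75.7 and 59.5 against 0.468 and 0.014. The co-receptor Lrp5 was higher in C57MG, at 59.8 and 59.7 RPKM against 19.9 and 17.8.

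Guidance genes leaned to BC44, with 17 of 36 tested called higher there and 7 in C57MG. Many were low: of the 18 above 1 RPKM in all 4 libraries, 5 and 3 were called. The Eph receptor Epha1 was at 31.3 and 27.5 RPKM in BC44 and 0.406 and 0 in C57MG, and semaphorin 3E (Sema3e) at 9.04 and 9.52 against 0.066 and 0. Plexin B1 (Plxnb1) was at 10.1 and 8.98 RPKM in BC44 against 0.253 and 0.174, and plexin D1 (Plxnd1), the receptor of semaphorin 3E, at 1.31 and 1.85 in BC44 against 53.2 and 50.5. Ephb6 was at 67.1 and 68.8 RPKM in C57MG and 2.88 and 2.89 in BC44.

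Chemokines and other cytokines were mostly higher in C57MG than in BC44. Of 14 tested members (32 listed), 9 were called higher in C57MG and 2 in BC44, with a median of -3.52 (0 and 5 of the 8 above 1 RPKM in all 4 libraries). The list held 1.45% and 1.59% of summed RPKM in C57MG and 0.268% and 0.276% in BC44. HC11 held 1.425% and 2.166%, so a high share was not particular to C57MG. Osteopontin (Spp1) was the main part in C57MG, at 2741 and 2989 RPKM there and 67.8 and 103 in BC44. The monocyte attractant Ccl2 was at 236 and 240.0 RPKM in C57MG against 1.14 and 3.78 in BC44, a difference of -6.22 ± 0.46 (SE; limma adjusted p = 8.53e-06). Its neighbour Ccl7 was at 205 and 214 against 0.683 and 3.43. The macrophage growth factor Csf1 was at 354 and 339 RPKM against 2.05 and 6.54. The 2 C57MG libraries differed in the neutrophil attractant Cxcl5, at 244 and 395 RPKM. Cxcl16, a membrane-bound chemokine, was higher in BC44 at 12.1 and 13.4 RPKM against 0.11 and 0, and the cytokine Lif at 2.89 and 4.47 against 0.903 and 0.656. Lif lost its call in BC44 replicate 1 against C57MG replicate 2 alone, which left 1 member higher in BC44.

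Class I antigen presentation was also higher in C57MG, for 11 of 16 tested genes, with a median of -1.72 (1 and 5 of the 10 above 1 RPKM in all 4 libraries). The class I heavy chain H2-D1 was at 42.4 and 43.9 RPKM in C57MG and 0.61 and 1.02 in BC44, a difference of -4.61 ± 0.14 (SE; limma adjusted p = 1.50e-07). H2-K1, another heavy chain, was not called, at 8.15 and 8.01 against 6.92 and 5.74 RPKM, and reads of these near-identical copies can be shared. Its light chain B2m was at 591 and 568 RPKM in C57MG and 145 and 143 in BC44. The immunoproteasome subunit Psmb8 was at 20.7 and 24.9 RPKM in C57MG against 0.15 and 0.44, and the peptide-loading factor tapasin (Tapbp) at 69.6 and 75.2 against 9.07 and 9.7. The peptide transporter Tap2 was at 12.7 and 14.6 RPKM against 0.543 and 0.515. H2-T23 was the member higher in BC44 (5.45 and 5.81 against 2.01 and 2.13 RPKM) and lost its call in BC44 replicate 1 against C57MG replicate 2.

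Secreted proteases and inhibitors had 13 of 24 tested called higher in C57MG and 7 in BC44 (3 and 9 of the 16 above 1 RPKM in all 4 libraries). The protease inhibitor Slpi was at 55.1 and 61.3 RPKM in C57MG against 2.55 and 2.67, and the metalloprotease Mmp19 at 13.4 and 13 against 0.521 and 0.739. The urokinase receptor Plaur was at 43.1 and 35.3 RPKM against 7.54 and 10.3, and the plasminogen activator Plat at 20.1 and 18.8 against 3.3 and 2.9. On the BC44 side was maspin (Serpinb5), at 157 and 169 RPKM against 1.53 and 0.047. The secreted protease Adamts1 was at 119 and 168 RPKM in BC44 against 3.69 and 1.54, and the membrane metalloprotease Mmp15 at 34.7 and 21.2 against 0.102 and 0. The inhibitors Timp2 and Timp3 were abundant in both lines and called in opposite directions. Timp2 was at 211 and 202 RPKM in BC44 and 459 and 444 in C57MG, and Timp3 at 185 and 202 against 82.1 and 85.2.

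Homeobox cluster genes were called higher in BC44 for 12 of 13 tested, and none in C57MG, with a median of 1.75 (2 and 0 of the 3 above 1 RPKM in all 4 libraries). These genes encode positional identity along the body axis. The levels were low, and with a mean of at least 5 RPKM required 2 remained called. Hoxb9, the most abundant, was at 36.3 and 36.2 RPKM in BC44 and 16 and 16.1 in C57MG, a difference of 1.13 ± 0.08 (SE; limma adjusted p = 5.37e-06). Hoxb2 was at 9.83 and 10.2 against 0.143 and 0.019 RPKM. Hoxb7 was at 3.94 and 4.38 RPKM in BC44 and at or near 0 in C57MG (0.036 and 0). Neighbouring genes of a cluster are not independent. Imprinted genes, of which 7 were tested, had 2 called higher in BC44 and 3 in C57MG. Phlda2 was at 6.87 and 8.1 RPKM in BC44 and 0.146 and 0 in C57MG, and Impact at 4.17 and 3.74 against 35 and 30.4.

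Redox enzymes were likewise called in both directions. Among 30 tested, 11 were called higher in C57MG and 7 in BC44 (1 and 8 of the 21 above 1 RPKM in all 4 libraries). Over all genes above 1 RPKM in all 4 libraries, the shares were 9.37% and 10.7%. The mu-class glutathione transferase Gstm1 was at 448 and 431 RPKM in C57MG against 3.97 and 8.84 in BC44, and Gstm2 at 129 and 118 against 2.93 and 4.47. Near-identical members of this family can share reads. Extracellular superoxide dismutase (Sod3) was at 193 and 168 RPKM in C57MG and 1.42 and 3.96 in BC44. In BC44 the peroxidase Gpx2 was at 342 and 344 RPKM against 2.65 and 0 in C57MG, a difference of 7.49 ± 0.51 (SE; limma adjusted p = 5.29e-06). The alpha-class transferase Gsta3 was at 61.5 and 87.7 against 0.795 and 0 RPKM, and the quinone reductase Nqo1 at 47.8 and 54.5 against 0.962 and 0.459. The abundant Sod1 was not called, at 430.4 and 396 RPKM in BC44 and 389 and 382 in C57MG.

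Of 25 tested chaperones, 6 were called higher in BC44 and 1 in C57MG (4 and 1 of the 23 above 1 RPKM in all 4 libraries). Over all tested genes the shares called were 14.9% and 15.4%. The small heat shock protein Hspb1 had the largest difference, at 768 and 919 RPKM in BC44 and 6.92 and 0.126 in C57MG, a difference of 8.14 ± 0.73 (SE; limma adjusted p = 2.60e-05). Cryab, another small heat shock protein, was at 244 and 211 against 54 and 50.1 RPKM, and the HSP110 chaperone Hsph1 at 137 and 161 against 18.6 and 19.6. Hspb6 was the member higher in C57MG, at 11.2 and 12.8 RPKM against 3.21 and 2.87. The constitutive chaperone Hspa8 was not called, at 490.1 and 551 RPKM in BC44 against 546 and 520.5. Hsp90ab1, the most abundant member, passed the adjusted p without reaching 2-fold, at 1548 and 1633 RPKM against 971 and 937.

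S100 calcium-binding proteins and annexins had 7 of 19 tested called higher in C57MG and 1 in BC44 (0 and 6 of the 17 above 1 RPKM in all 4 libraries). S100a4, a marker of motile and mesenchymal cells, was the most abundant, at 3684 and 3794 RPKM in C57MG and 45.1 and 86 in BC44, where it held 1.21% and 2.30% of the C57MG mean. S100a14 was the member higher in BC44, at 235 and 248 RPKM against 2.83 and 0.887. S100a1 was at 103 and 103 RPKM in C57MG against 2.96 and 3.14. S100a8, a neutrophil-type alarmin, was at 10.3 and 10.1 RPKM in C57MG and listed at 0 in both BC44 libraries. S100a11 was not called, at 1044 and 1032 RPKM in BC44 against 1005 and 937.

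Ribosomal and cell cycle genes gave few calls. Of 41 ribosomal protein genes 37 were not called, with a median difference of 0.40, and of 40 cell cycle genes 32 were not called, with a median of 0.007. Above 1 RPKM in all 4 libraries, 2 ribosomal genes were called higher in BC44 and 2 in C57MG, and of 38 cell cycle genes 4 and 2, beside the 9.37% and 10.7% of all such genes. Rps25 was at 1277 and 1294 RPKM in BC44 and 494 and 481 in C57MG, and Rps18 at 72.3 and 74 against 222 and 229, genes with many processed copies that can divert reads. Cdkn2a, which encodes p16 and p19Arf, was at 118 and 111 RPKM in BC44 and 13.1 and 12.6 in C57MG, a difference of 3.06 ± 0.08 (SE; limma adjusted p = 1.45e-07), and its neighbour Cdkn2b at 13.7 and 12.3 against 0.119 and 0. Cyclin E1 (Ccne1) was at 30.0 and 28.8 against 4.84 and 4.73 RPKM. The replication licensing genes Cdc6 and Mcm6 were the members higher in C57MG. Cdc6 was at 24.1 and 21.5 RPKM in C57MG against 8.54 and 9.89, and Mcm6 at 200.1 and 196 against 78.2 and 88.6. Cyclin D1 (Ccnd1) was not called, at 158 and 158 RPKM in BC44 against 226 and 196 in C57MG.

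The 15 genes with the largest difference in each direction drew on these groups and a few others. In BC44 they included Krt5, Hspb1, Spink5, Krt6a, Gpx2, Igfbp3, Tmsb4x, Fst, Ly6d, Col17a1, Igfbp5, Jup, Krt17 and Serpinb5, between 6.66 and 8.76. Of those not described above, the serine protease inhibitor Spink5 was at 496 and 658 RPKM in BC44 against 5.04 and 0.095 in C57MG. The surface antigen Ly6d was at 406 and 273 against 2.4 and 0.469 RPKM. The IGF binding proteins Igfbp3 and Igfbp5 were also higher in BC44, Igfbp3 at 320.0 and 361 RPKM against 2.72 and 0.041 and Igfbp5 at 254 and 192 against 1.62 and 0.011. Thymosin beta 4 (Tmsb4x), which binds actin monomers and is abundant in most cells, was at 713 and 493 RPKM in BC44 against 5.53 and 0.899 in C57MG, a difference of 7.40 ± 0.50 (SE; limma adjusted p = 4.95e-06). HC11 held 791 and 589 RPKM. In C57MG the 15 were Vim, Serpinh1, Ccl7, Ccl2, Csf1, Igfbp4, Gstm1, Aqp1, Ptx3, S100a4, Cxcl5, Col1a1, Sod3, Orm1 and Acta2, between -5.66 and -6.44. Igfbp4 was at 341 and 357 RPKM in C57MG and 2.21 and 6.62 in BC44, so IGF binding proteins were called in both directions. The water channel Aqp1 was at 193 and 184 RPKM in C57MG and 1.33 and 3.16 in BC44. The acute-phase gene Ptx3 was at 131 and 135 RPKM in C57MG against 0.536 and 2.33, and Orm1 at 358 and 316 against 4.15 and 7.54. In every gene of both sets the libraries of the lines did not overlap, which the rule required.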

How the data were processed

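The values are RPKM, computed by the authors and deposited as 1 table of 11417 genes and 6 libraries with 3 decimals. Libraries were poly(A)-selected and made with a directional kit, per the labels' protocols, and STAR and mm9 are named in the submitters' processing notes. The read counter, annotation, gene lengths and use of strand are not given in the sources used here, so values of overlapping genes and near-identical copies are uncertain. The only coordinates printed are those of RefSeq promoters on GRCm38.p6, since the annotation used here is not on mm9.

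Genes with at least 1 RPKM in at least 2 of the 4 BC44 and C57MG libraries (10521) were tested on log2(RPKM + 1). The tool was limma 3.58.1 under R 4.3.3, with its functions lmFit, contrasts.fit and eBayes, the latter with an intensity trend. All 6 libraries shared 1 estimate of the spread, and HC11 entered for that alone. Two-sided p-values took a Benjamini-Hochberg adjustment over all genes tested, with a threshold of 0.05. The fit was tested on simulated data. Python 3.11.15, numpy 2.4.6, pandas 2.3.3 and matplotlib 3.10.9 did the rest.

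Depth was estimated by finding the read total at which low RPKM values, times exon length, fall on whole reads. Between 76.0% and 80.5% of the low values lay within 0.15 of a whole number, against 30.0% by chance. Length-weighted RPKM summed to 1286564 to 1328115 per library, more than the definition of RPKM allows. The gene lengths used here may differ from the authors', which was not tested, and the depths are estimates. Floors cover counting error only.

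Members and all 26 gene lists and 7 marker lists were chosen with earlier results of these data known, so no count is independent evidence. Genes were named by rule: the 15 largest called differences without overlap per direction, in each list the 4 largest called members per direction and the 3 most abundant, and Wnt4 and the Grhl genes. Tjp1, Krt16, Krt6b, Trp63, Zeb1, Fgfr1, H2-K1, Timp3, Epcam and Arg1, the marker genes Dcn, Krt8, Krt18, Lyz2, Pecam1, Pparg and Mcam, and the genes under the closing observations were chosen after their values were seen. Listed genes without a row in the table are not analysed here, and some genes that the rule names are not reported here. Deviations of same-numbered BC44 and C57MG libraries were not correlated across genes (r = -0.04). That value cannot show whether same-numbered libraries were handled together, which the labels do not say. The alternatives were 16 settings of pseudocount, filter, scaling, fit, block, libraries and cross-line signal.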

Additional observations from a re-analysis of the deposited data

How the results depend on the processing

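Over the 16 settings, calls higher in BC44 and in C57MG stayed within 1.5 times 1572 and 1616 except with a mean of at least 5 RPKM, where fewer genes were tested and 999 and 1053 were called. That filter left 0 desmosome genes called higher in C57MG, 7 epithelial factors higher in BC44 and 1 in C57MG, and 7 and 4 guidance genes. Called higher in BC44 it left 0 matrix receptors, 0 imprinted and 0 class I genes, 1 chemokine, 2 cadherin-list and 2 homeobox genes, 3 growth factor ligands, 4 redox enzymes and 6 Wnt genes, and in C57MG 3 Notch genes. With a pseudocount of 0.1, 1 keratin was called higher in C57MG and 2 S100 or annexin genes in BC44. With no filter, or with the filter over all 6 libraries, 2 matrix receptors were higher in BC44. Quantile normalization and median-ratio scaling each left 1 ribosomal gene higher in BC44. Quantile normalization also turned the sign of 4 genes that were not called, Igf2r (-0.032), Mif (-0.067), S100a11 (-0.148) and Sod1 (-0.049). BC44 replicate 1 against C57MG replicate 2 alone gave 4995 genes passing in place of 7666, with 1 chemokine, 2 S100 or annexin and 0 class I genes higher in BC44, and Klf4 at 0.02. In that fit each line has a single library, assumed to vary like HC11. Leaving out each library in turn gave 1 to 2 ribosomal genes and 1 to 2 S100 or annexin genes higher in BC44. Differences of genes that were not called then ranged from -0.121 to 0.047 for Hspa8, from -0.065 to 0.111 for Igf2r, from -0.012 to 0.244 for Ptk7 and from -0.17 to 0.047 for Klf4. Adding a replicate block to the fit, 7815 genes passed and the counts of calls were 1572 and 1616, with no call of a named gene changed. A setting added after seeing the data had no condition on HC11 and a ceiling of 5% in place of 2%. Its cross-line median was 0.905% in BC44 replicate 1 and 0.911% and 0.022% in C57MG replicates 1 and 2. With at least 50 RPKM and at most 1%, the median was 0.014% in C57MG replicate 2, over 2 genes. That rule left 3 genes in C57MG replicate 1 and 0 in BC44 replicate 1, which therefore had no median. Of 227 genes named by rule, Id1, Hes6, Notch4 and Rpl7 lost a call when 1 library was left out, and Calr, Foxc1, Plxna1 and Sema3c gained one. Id1 and Rpl7 were at -0.843 and 0.982 without BC44 replicate 1, Hes6 and Notch4 at -0.906 and -0.991 without BC44 replicate 2, and Notch4 and Rpl7 at -0.978 and 0.988 without C57MG replicate 1. Where not given, the cause was not tested. Depth limits levels under about 0.1 RPKM, and 2 libraries a line limit every test.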

Other observations

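Several families of secreted and surface genes outside the lists also differed, and were chosen here after their values were seen. Among IGF binding proteins, which carry insulin-like growth factors, Igfbp2 was at 128 and 124 RPKM in BC44 against 0.749 and 0.035 in C57MG, on the side of Igfbp3 and Igfbp5. Igfbp6 was at 35.2 and 35.4 RPKM in C57MG against 0.246 and 0.722 in BC44, on the side of Igfbp4. Igfbp7 was expressed in both, at 211 and 244 RPKM in C57MG against 40.9 and 41.7 in BC44, a difference of -2.43 ± 0.11 (SE; limma adjusted p = 5.84e-07). HC11 held almost no Igfbp2 (0.058 and 0.113 RPKM). Neprilysin (Mme), a surface peptidase, was at 91.8 and 56.7 RPKM in BC44 against 0.405 and 0. The secreted BMP and Wnt modulator Sostdc1 was at 97.1 and 87.2 RPKM in BC44 against 1.01 and 0. The homeobox factor Pitx1 was at 79.7 and 76.5 RPKM in BC44 against 0.667 and 0. Mme and Sostdc1 were low in HC11, Mme at 0.381 and 0.296 RPKM and Sostdc1 at 2.8 and 0.518, whereas Pitx1 was at 68.5 and 56.4 there.

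On the C57MG side, the elastic-fibre proteins Emilin1 and Emilin2 were at 71.2 and 73 RPKM and at 63.2 and 60.1 RPKM, against 0.305 and 1.23 for Emilin1 and 0.28 and 1.26 for Emilin2 in BC44. The surface antigen Ly6c1 was at 284 and 291 RPKM in C57MG against 7.7 and 7.51 in BC44, whose libraries were level at 2.67% and 2.61% of the C57MG mean. By comparison Igfbp4 in BC44 stood at 0.635% and 1.90%, unequal like the cross-line shares. Igfbp4 is among the genes that set these shares, so it lies near them partly by construction. Orm2 was at 56.3 and 63.8 RPKM in C57MG against 0.441 and 1.18, beside its near-identical neighbour Orm1, and reads of the pair can be shared.

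Thymosin beta 10 (Tmsb10) did not follow thymosin beta 4, at 221 and 217 RPKM in BC44 and 266 and 214 in C57MG. The X-inactivation transcript Xist was at 87.1 and 95.5 RPKM in C57MG, 55.4 and 58.7 in HC11 and 0.436 and 1.47 in BC44, where it held 0.478% and 1.61% of the C57MG mean.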
